A study of Mus musculus with 9 samples.

Results

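The genes described here encode the enzymes that attach ubiquitin to proteins and take it off again. They were taken by gene name, as every gene whose mouse symbol begins with Ube2, Ube3, Ube4, Uba or Usp with a number, Uch, Fbxo, Fbxl, Fbxw or Cul with a number. Of 212 gene names of the mouse annotation (GENCODE M21, GRCm38) that fit this rule, 146 were listed in the data, out of 12275 genes listed in all. They included 7 E1 genes, 29 E2 genes, 5 genes of the UBE3 and UBE4 ligases, 8 cullins, 48 F-box genes, 43 ubiquitin-specific proteases (USP) and 2 ubiquitin C-terminal hydrolases (UCH). A further 3 rows fitted the name rule without being such an enzyme. These were the pseudogenes Ube2d-ps and Ube2n-ps1 and the gene Usp6nl, which encodes a regulator of Rab GTPases. Uchl1, one of the genes selected for description, was not listed and is not analysed here.

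The study sorted YFP-positive cells, labelled as pyramidal neurons, from amygdala punches of individual mice (Thy1-YFP, B6.Cg-Tg(Thy1-YFP)HJrs/J) and sequenced their RNA. The mice were classified by an approach and avoidance conflict task as balancing (BA), avoiding (AV) or approaching (AP), with 3 mice in each group, and brains were taken 1 month later. All mice carried the same transgene. They were given palatable food as part of the task and had limited access to their usual food around it. Their age is not given in the sources used here. YFP is under the Thy1 promoter, so the sort takes labelled projection neurons, and some neurons of other types carry the label too. The groups were selected for their behavior within one stock and are not strains or genotypes. BA mice stood near the middle of the behavioral range, and AV and AP mice at its ends. The BA vs AV table held 3 BA and 2 AV mice, since 1 AV mouse had been dropped by the authors as outlying, and 135 of the 146 genes were listed there. The BA vs AP table held the same 3 BA mice with 3 AP mice and listed all 146 genes. Both comparisons therefore share their control mice. Values are given in the order of replicates 1, 2 and 3, and for AV mice in the order of replicates 1 and 3.

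Ubiquitin is a small protein that cells couple to other proteins as a mark, most often for destruction by the proteasome. An E1 enzyme activates it, an E2 enzyme carries it, and an E3 ligase brings the E2 to a chosen substrate. Cullins are the scaffolds of the largest group of E3 ligases, and F-box proteins are the exchangeable parts that pick substrates for the cullin 1 scaffold. Deubiquitinases such as the USP and UCH enzymes remove the mark or trim ubiquitin chains. In neurons this system is known for its part in synapse turnover, receptor trafficking and the clearance of damaged mitochondria.

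The label of the sorted cells was checked against markers of cell types before any comparison. Of 7 markers of excitatory neurons only Camk2a, a kinase of excitatory synapses, was listed, and Slc17a7, Slc17a6, Neurod2, Neurod6 and Tbr1 were among those that were not. Of 7 markers of all neurons only Map2 was listed, so the defining markers of the label were largely absent from the tables. Camk2a had a normalized signal of 55.3, 77.3 and 68.4 in the BA mice and of 1656 and 2965 in the AV mice. For Map2 the signal was 819, 917 and 1154 in the BA mice and 4703 and 6319 in the AV mice. All 7 oligodendrocyte markers were listed, and their summed signal was 187302 to 232350 in BA mice and 53387 to 82160 in AV mice, with 5 of them called lower. Astrocyte markers (6 of 7 listed) summed to 9564 to 15229 in BA and 30629 to 59756 in AV mice, with 4 called higher, and microglial markers (3 of 9 listed) to 237 to 354 and 722 to 939, with 3 called higher. Oligodendrocyte precursor markers (3 of 4 listed) summed to 2777 to 4279 and 2108 to 3443, with Pdgfra called higher and Olig1 and Olig2 called lower. The listed endothelial markers (2 of 4) summed to 183 to 306 and 148 to 165, with none called, and the listed ependymal marker, Foxj1, had 61.9 to 74.5 and 22.2 to 30.2 and was called lower. No inhibitory neuron or blood marker was listed in the BA vs AV table. The listed neuronal markers Camk2a and Map2, and most listed astrocyte and microglial markers, were thus called higher in the AV group. Most oligodendrocyte markers and Foxj1 were called lower, while precursor markers went both ways. The part of these cell types in the changes of the ubiquitin genes was not tested. In bulk RNA, fewer cells of a type and less RNA per cell cannot be told apart.

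Normalized signal summed to 3267967 to 3974274 per mouse for BA vs AV and to 4589304 to 5072766 for BA vs AP. The values carry no unit of molecules, and for BA vs AV their depth is unknown. In the BA vs AP table a value of 2 stands for a gene without reads, and 3 reads correspond to a signal of 4.125 to 5.678, depending on the mouse. A gene was called when the Benjamini-Hochberg adjusted p of limma, fitted on log2(signal + 1) over all genes of a table, was below 0.05. Fold changes are on that log2 scale and understate the change of genes with low signal.

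In AV mice, E2 enzymes, Fbxl and Fbxo genes and USP genes were called in both directions. The called Fbxw and UCH genes were all higher, the 1 called gene of the UBE3 and UBE4 class was lower, and no E1 enzyme or cullin was called. Of the 135 genes 29 were called, which is 21.5%, against 29.7% of all 9872 genes. There were 16 higher and 13 lower in AV mice, beside 13.6% of all genes called higher and 16.2% called lower. The largest increases were those of Fbxl16 and Usp46, and the largest decreases were those of Usp54, Fbxo7, Fbxo27 and Usp30. The BA and AV mice did not overlap for 78 of the 135 genes (57.8%), while 58.9% of all genes had no overlap. The median log2 fold change was 0.08 for the 135 genes and -0.03 for all genes. The ubiquitin genes as a whole were therefore called no more often than the background. Without BA replicate 1, 2 or 3 the number of called ubiquitin genes fell to 14, 13 and 14. In these fits an unadjusted p under 0.05 was reached by 35.7%, 34.4% and 35.9% of all genes, against 43.2% with all mice. For the ubiquitin genes these shares were 25.2%, 25.2% and 24.4%, against 30.4%. All 29 genes kept their direction in each of the 5 fits that left out 1 mouse, and 12 of them, 6 higher and 6 lower, passed the test in all 5.

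**Figure D1:**
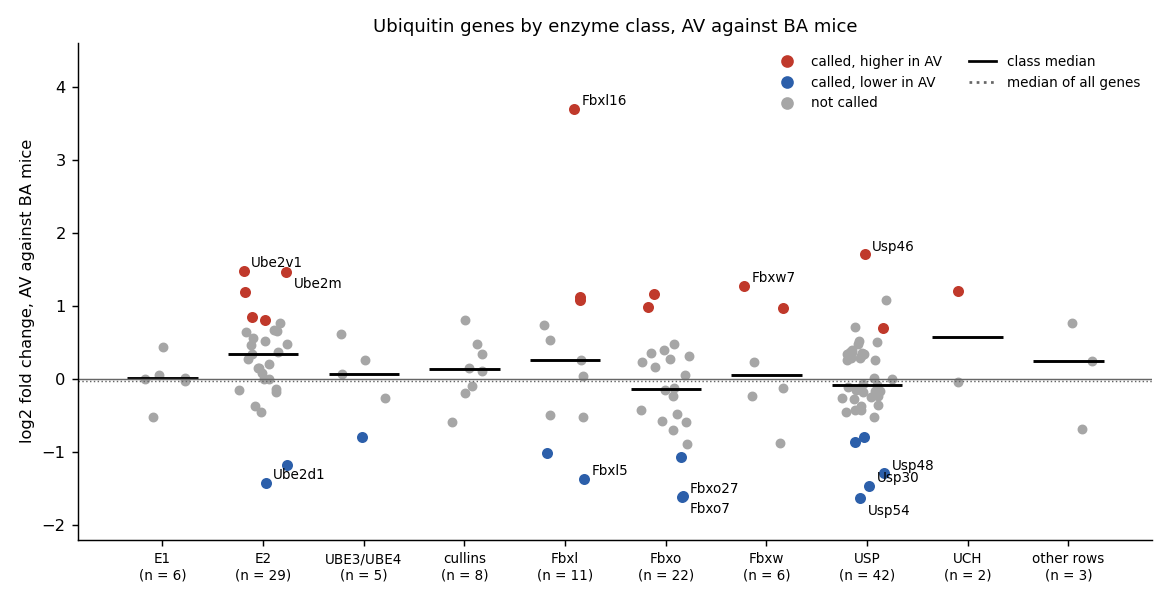
Log2 fold change of the ubiquitin genes of each enzyme class in AV against BA mice (y axis), by class (x axis, with the number of genes). Each point is 1 gene, red points were called higher and blue points lower, grey points were not called, black bars are class medians and the dotted line is the median of all genes. Fbxl16 stands far above the other genes at 3.70, and the E1 and cullin columns hold grey points only.

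The E1 enzymes stand at the top of the cascade and are few. None of the 6 listed E1 genes was called, and their median log2 fold change was 0.01. Uba1, the main ubiquitin-activating enzyme, had signals of 878, 987 and 670 in BA mice and 1106 and 1152 in AV mice. The AV mice lay above the BA mice, but the difference was not past the test (log2 fold change 0.44, SE 0.25, adjusted p = 0.223). Uba6, the second E1 of ubiquitin, had 214, 309 and 294 in BA mice and 395 and 198 in AV mice, which lie on either side of the BA values. For the Y-linked Uba1y the 2 AV mice stood apart, with 53.9 and 6.01 beside 14.5 to 23.1 in BA mice. It was called lower without AV replicate 1 and higher without AV replicate 3 (log2 fold changes -1.47 and 1.50), and it is named here after its values were seen.

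Among the 29 E2 enzymes, 21 had a higher mean in the AV group, while 4792 of all 9872 genes did. The test called 5 higher and 2 lower (24.1% in all, against 29.7% of all genes). The median log2 fold change of the E2 enzymes was 0.35, the highest of the classes with more than 2 genes. Ube2v1 is the inactive partner that, with Ube2n, builds chains used for signaling rather than destruction. Its signal was 136, 111 and 97.4 in the BA mice and 308 and 329 in the AV mice. The groups were well apart, with a 2.78-fold increase (log2 fold change 1.48, SE 0.24, adjusted p = 0.00634). Its exons share 1673 of 2721 bases with Gm20431 on the same strand, so its level is uncertain. The catalytic partner Ube2n had 215, 281 and 273 in BA and 504 and 326 in AV mice and was not called (log2 fold change 0.67, adjusted p = 0.109).

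Other E2 enzymes serve proteins related to ubiquitin. Ube2m carries NEDD8, the modifier that switches cullin ligases on. It had 72.6, 122 and 108 in the BA mice and 251 and 299 in the AV mice. The lowest AV value was above the highest BA value, and the increase was 2.77-fold (log2 fold change 1.47, SE 0.29, adjusted p = 0.0112). The second NEDD8 carrier, Ube2f, had a log2 fold change of 0.56 and was not called (adjusted p = 0.108). Ube2l6, the E2 of the interferon-induced modifier ISG15, moved down, from 46.8, 34.6 and 37.9 in BA mice to 22.6 and 12.5 in AV mice (log2 fold change -1.18, SE 0.30, adjusted p = 0.0282). It lost its call in 4 of the 5 fits without 1 mouse.

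Ube2d1, a broadly acting E2 that works with many RING ligases, showed the largest decrease of the class. Its signal was 757, 917 and 929 in the BA mice and 309 and 334 in the AV mice. No AV mouse came near the BA range, and the signal was 2.69-fold lower (log2 fold change -1.43, SE 0.22, adjusted p = 0.00577). The close relatives Ube2d2a and Ube2d3 had log2 fold changes of -0.15 and -0.17 with overlapping groups. The remaining called E2 genes all rose, namely Ube2g2 of endoplasmic reticulum quality control, with a log2 fold change of 1.196, Ube2q1 with 0.85 and Ube2e1 with 0.81. Each of these 3 lost its call in at least 3 of the 5 fits without 1 mouse. Ube2k, an E2 known to bind huntingtin, had 331, 408 and 450 in BA and 503 and 498 in AV mice and was not called (adjusted p = 0.294).

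Ligases of the UBE3 and UBE4 type act without cullins. Of 5 listed genes 1 was called (20%, against 29.7% of all genes). Ube4a, which extends ubiquitin chains, fell from 574, 684 and 571 in BA mice to 370 and 332 in AV mice (log2 fold change -0.79, SE 0.22, adjusted p = 0.0356), with no overlap, but it kept its call in 1 of the 5 fits without 1 mouse. Its relative Ube4b had 615, 610 and 535 in BA and 597 and 628 in AV mice. Ube3a, the imprinted HECT ligase mutated in Angelman syndrome, had 1079, 1494 and 1517 in BA mice and 1220 and 1043 in AV mice. The groups overlapped (log2 fold change -0.26, SE 0.25, adjusted p = 0.469), and reads of its antisense transcript Snhg14, which shares 1803 exon bases on the other strand, are separated only by the stranded library. Ube3b and Ube3c had log2 fold changes of 0.62 and 0.25, and neither was called (adjusted p = 0.106 and 0.423).

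None of the 8 cullins, the scaffolds of ligases, was called. Their log2 fold changes ran from -0.59 for Cul4a to 0.81 for Cul7, with a median of 0.13. Cul3, which serves BTB proteins, had 497, 573 and 661 in BA and 666 and 611 in AV mice. Cul1, the scaffold of the F-box ligases, had 371, 541 and 533 in BA and 496 and 395 in AV mice, fully overlapping. Cul4b and Cul5 had log2 fold changes of 0.34 and -0.19 (adjusted p = 0.311 and 0.613). Cul7 came closest, with 110, 75.4 and 85.8 in BA mice and 138 and 179 in AV mice. Its adjusted p was 0.0567, and it passed the test with a pseudocount of 5 (0.0478). Without AV replicate 1, which leaves 1 AV mouse, its log2 fold change was 0.99.

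The F-box proteins, which give the cullin 1 ligases their substrates, held the largest single change. Of 39 listed genes 12 were called, 7 higher and 5 lower, or 30.8%, which is near the 29.7% of all genes. They were 5 of 11 Fbxl genes (leucine-rich repeats), 5 of 22 Fbxo genes (other domains) and 2 of 6 Fbxw genes (WD40 repeats). Whether F-box genes were called more often than other ubiquitin genes was not tested.

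Fbxl16 (ENSMUSG00000025738.8, chr17:25809085-25821255, plus strand) encodes an F-box protein with leucine-rich repeats. It had a signal of 59.5, 71.9 and 47.3 in the BA mice and of 718 and 834 in the AV mice. Even the lower AV mouse was far above every BA mouse. The signal was 13.0-fold higher (log2 fold change 3.70, SE 0.26, adjusted p = 0.00256). Per kb of exon the mean went from 16.6 to 216, from the lower part of the ubiquitin genes to near their top.

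Fbxw7, which marks cyclin E, Myc, Jun and Notch for destruction, had 106, 105 and 99.4 in BA mice and 258 and 246 in AV mice. Spread within each group was small, and the increase was 2.42-fold (log2 fold change 1.27, SE 0.21, adjusted p = 0.00639). Fbxl17, a quality control factor for BTB protein dimers, rose from 228, 182 and 223 to 472 and 445 (log2 fold change 1.12, adjusted p = 0.0118), and was called in 4 of the 5 fits without 1 mouse. Fbxo2, a brain-enriched F-box protein that recognizes sugar chains on glycoproteins, had 56.8, 54.9 and 36.8 in BA and 89.4 and 136 in AV mice (log2 fold change 1.16, adjusted p = 0.0287). The AV mice were higher but differed from each other, and the call was lost in 4 of the 5 fits without 1 mouse. Fbxl19, Fbxo34 and Fbxw5 rose by 1.08, 0.99 and 0.97 on the log2 scale, with adjusted p from 0.0284 to 0.0346, and were called in 3, 1 and 1 of these fits.

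Of the F-box genes that fell, Fbxo7 is a gene of familial parkinsonism whose protein works with the mitophagy factors PINK1 and parkin and with the proteasome. It had 1153, 1043 and 928 in the BA mice and 303 and 375 in the AV mice. The groups were widely separated, with a 3.07-fold decrease (log2 fold change -1.62, SE 0.23, adjusted p = 0.00477). Fbxl5 senses iron and directs the destruction of iron regulatory proteins. Its signal was nearly the same in all BA mice, at 1651, 1657 and 1623, and was 611 and 666 in the AV mice (log2 fold change -1.36, SE 0.21, adjusted p = 0.00542). Fbxo32 (atrogin-1), best known from muscle wasting, went from 591, 488 and 660 to 286 and 264 (log2 fold change -1.06, adjusted p = 0.0164), and was called in 3 of the 5 fits without 1 mouse. Fbxl12 went from 170, 113 and 122 to 69.5 and 60.8 (log2 fold change -1.02, adjusted p = 0.0274), and was called in 2 of them. Fbxo27, a relative of Fbxo2, was called lower as well (log2 fold change -1.61, adjusted p = 0.0353), but at a mean of only 19.4 in BA mice, below the minimum of 20 set for describing a gene, and it was called in 1 of the fits without 1 mouse.

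**Figure D2:**
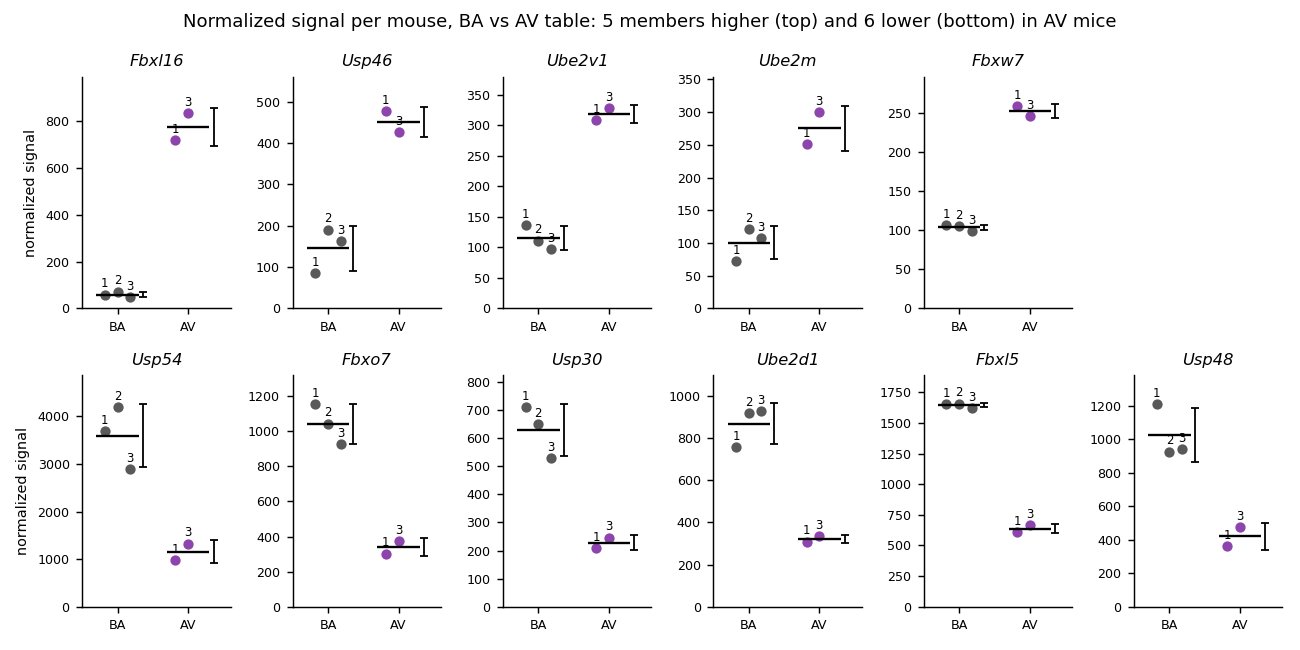
Normalized signal (y axes, linear, from 0) in the BA vs AV table of 11 ubiquitin genes called in all 5 fits without 1 mouse. Each point is 1 mouse with its replicate number, bars are means and error bars SD (3 BA and 2 AV mice). In the upper row both AV mice lie above all BA mice, most clearly for Fbxl16 with 718 and 834, and in the lower row both lie below, as for Usp54 with 986 and 1329.

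The USP family is the largest group of deubiquitinases. Of 42 listed USP genes 2 were called higher and 5 lower (16.7% in all, against 29.7% of all genes, where lower calls also outnumbered higher ones), and 20 had a higher and 22 a lower mean, with a median log2 fold change of -0.08. Usp46 (ENSMUSG00000054814.14, chr5:73998453-74068431, minus strand) removes ubiquitin from AMPA receptors and, in mice, is known for its effect on behavior under inescapable stress. It had 84.8, 191 and 162 in the BA mice and 477 and 426 in the AV mice. BA values were uneven, yet all lay below both AV mice, with a 3.25-fold increase (log2 fold change 1.70, SE 0.37, adjusted p = 0.0155). Its relative Usp12 had a log2 fold change of 0.51 and was not called (adjusted p = 0.122).

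Usp54 (ENSMUSG00000034235.17, chr14:20548912-20641063, minus strand) had the highest signal per kb of all ubiquitin genes in BA mice, at 396, and 128 in AV mice. Its signal was 3688, 4199 and 2897 in the BA mice and 986 and 1329 in the AV mice. It was 3.10-fold lower in AV mice, with no overlap (log2 fold change -1.63, SE 0.27, adjusted p = 0.00655). Usp30 sits on the outer mitochondrial membrane and removes the ubiquitin that parkin adds. It had 711, 649 and 530 in BA mice and 209 and 246 in AV mice, a 2.75-fold decrease (log2 fold change -1.46, SE 0.24, adjusted p = 0.00655). Usp30 and Fbxo7, which act on opposite sides of mitophagy, were thus both lower in AV mice. Usp48 went from 1213, 927 and 942 to 365 and 476 (log2 fold change -1.29, adjusted p = 0.0109).

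The other called USP genes changed less. Usp16, which takes ubiquitin off histone H2A, and Usp25 fell by 0.86 and 0.79 on the log2 scale (both adjusted p = 0.0318), and each was called in 1 of the 5 fits without 1 mouse. Usp29, an imprinted gene expressed from the paternal copy, had 102, 94.6 and 88.8 in BA and 143 and 167 in AV mice (log2 fold change 0.70, adjusted p = 0.0495), and this call was lost in every fit without 1 mouse. Usp9x, a highly expressed X-linked deubiquitinase of neuronal development, had 1976, 3359 and 2979 in BA mice and 2501 and 2381 in AV mice, fully overlapping. Usp7, which stabilizes Mdm2 and p53, had 648, 732 and 714 in BA and 826 and 848 in AV mice (log2 fold change 0.26, adjusted p = 0.369). Usp14, the deubiquitinase bound to the proteasome, had 131, 212 and 286 in BA and 240 and 272 in AV mice and was not called (adjusted p = 0.467).

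Of the 2 listed UCH genes, Uchl5, which also binds the proteasome, was called higher. It had 33.9, 49.8 and 69.7 in the BA mice and 106 and 122 in the AV mice (2.30-fold higher, SE 0.33 on the log2 scale, adjusted p = 0.0336), and it was called in 3 of the 5 fits without 1 mouse. Uchl3, which also processes ubiquitin precursors, had 81.4, 94.7 and 111 in BA and 117 and 72.8 in AV mice (adjusted p = 0.927). The 3 rows that are not ubiquitin enzymes were not called.

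Promoters of the USP genes with the largest called change in each direction are shown because both are annotated with a single start and their base composition differs. The 150 bases before the RefSeq start are given 5′ to 3′ on the gene's own strand (GRCm38.p6), with capitals for the GC box, the letters GGGCGG on either strand. The window of Usp46 is chr5:74068412-74068561 and that of Usp54 is chr14:20618355-20618504, both on the minus strand. The RefSeq start of Usp54 lies inside the longer gene of the other annotation.
Usp46: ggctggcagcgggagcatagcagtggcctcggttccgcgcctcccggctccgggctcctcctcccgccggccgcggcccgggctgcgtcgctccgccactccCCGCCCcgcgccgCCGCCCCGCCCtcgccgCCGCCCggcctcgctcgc
Usp54: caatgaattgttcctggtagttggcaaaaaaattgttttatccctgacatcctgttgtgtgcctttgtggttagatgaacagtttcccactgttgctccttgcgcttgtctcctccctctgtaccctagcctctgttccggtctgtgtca

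The Usp46 window was 84% G and C and held 4 GC box matches, and the Usp54 window was 46.7% G and C and held none. Neither held the CCAAT box (CCAAT) or the TATA box (TATAAA) on either strand. Over the longer window of 250 bases before to 50 after the start, 115 of the 146 genes had a RefSeq promoter, and 82 of them (71.3%) held a GC box, against 35.9% of 27025 promoters in the table. Their median G and C content was 65%, against 52.7%. CCAAT occurred in 26.1% of the ubiquitin promoters and 37.9% of all, and TATAAA in 4.35% and 14.2%. A GC box was found in 9 of 14 promoters of genes called higher in AV mice and in 5 of 11 of genes called lower. The 27025 promoters are those of the whole promoter set and not only of genes listed in the data. Whether ubiquitin promoters differ from those of other listed genes was not tested. Such matches describe letters only.

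Gene length moved with the change. Among all genes of the BA vs AV table the median log2 fold change was 0.12, -0.04 and -0.17 in the terciles of shortest, middle and longest exon length, divided at 3782 and 6520 bases. For ubiquitin genes these medians were 0.41 over 24 genes, 0.11 over 65 and -0.15 over 46. The shortest tercile held 8 ubiquitin genes called higher and 2 called lower of 24, beside 15.5% and 12.8% of all genes of that tercile. The longest held 3 higher and 6 lower of 46, beside 12.9% and 19.9% of all genes. Median exon length was 4457 bases for E2 genes and 7685 bases for USP genes, with median log2 fold changes of 0.35 and -0.08. For Fbxo genes the median exon length was 4431.5 bases and the median log2 fold change -0.14. The part of gene length in these changes was not tested.

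**Figure D3:**
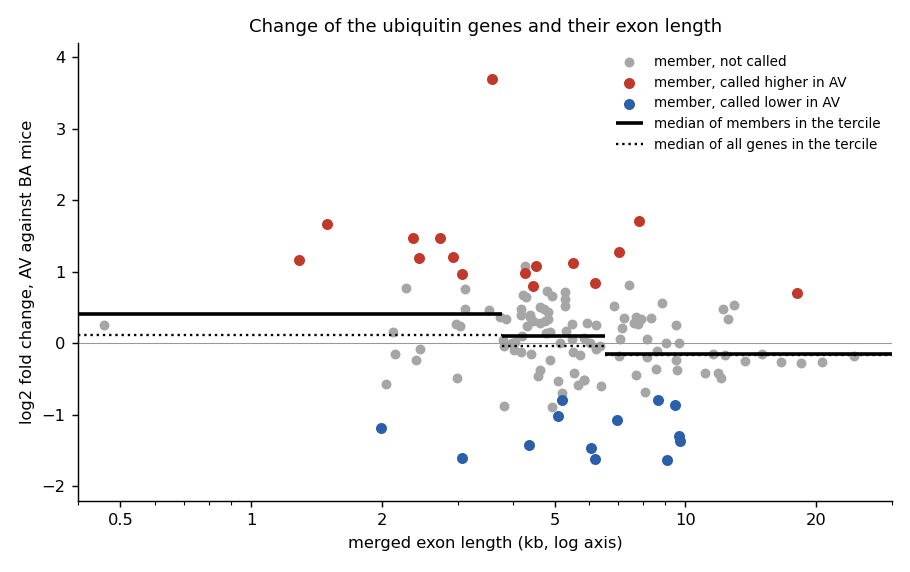
Log2 fold change in AV against BA mice (y axis) of the ubiquitin genes by merged exon length (x axis, kb, log scale). Each point is 1 gene, red was called higher, blue lower and grey not called, solid bars are medians of the ubiquitin genes and dotted bars medians of all genes in each tercile of length. The solid bars step down from 0.41 to 0.11 and -0.15.

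In AP mice no ubiquitin gene passed the test. Of 146 genes 0 were called by limma, beside 0.00846% of all 11820 genes, which is a single gene. An unadjusted p under 0.05 was reached by 6 ubiquitin genes (4.11%), 3 higher and 3 lower, against 7.77% of all genes. Groups did not overlap for 12 genes (8.22%), 5 higher and 7 lower, against 12.1% of all genes. The median log2 fold change was -0.03 for the ubiquitin genes and -0.03 for all genes, and the medians of the enzyme classes lay between -0.31 and 0.24. The number with an unadjusted p under 0.05 depended on single mice. It was 20 (13.7%, against 15.3% of all genes) without AP replicate 1 and 3 (2.05%, against 5.12%) without AP replicate 3. It was 2 (1.37%) without BA replicate 1 or BA replicate 3, against 5.23% and 7.34% of all genes.

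**Figure D4:**
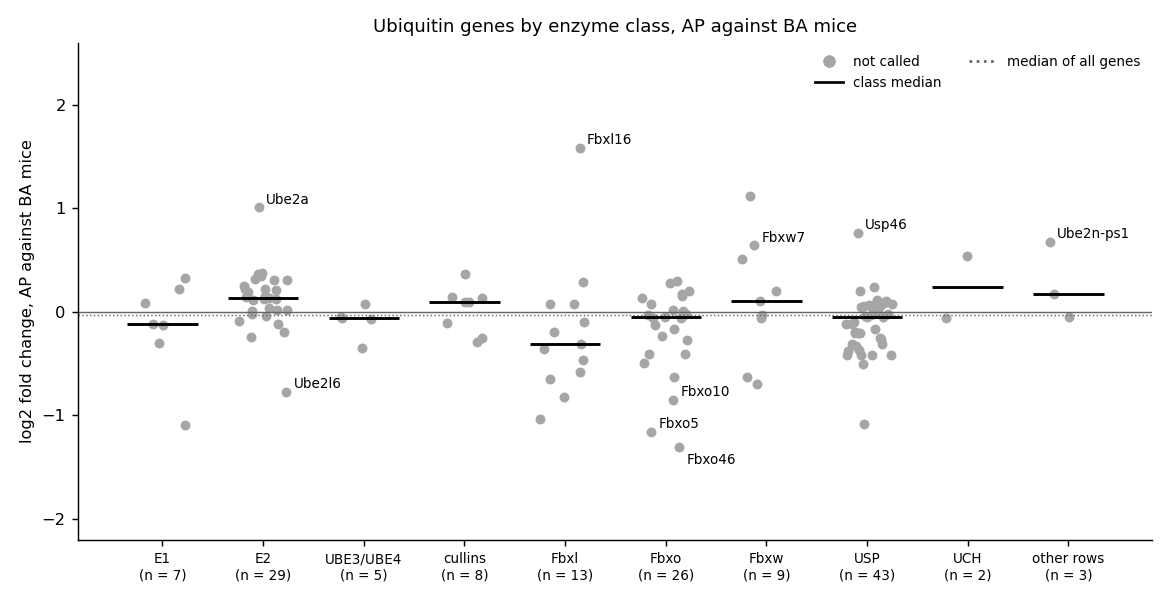
Log2 fold change of the ubiquitin genes of each enzyme class in AP against BA mice (y axis), by class (x axis, with the number of genes). Each point is 1 gene and all are grey since none was called, black bars are class medians and the dotted line is the median of all genes. Fbxl16 is the highest point at 1.58 and Fbxo46 the lowest at -1.31.

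Ube2a and the pseudogene Ube2n-ps1 were among the ubiquitin genes with the smallest p that were higher in AP mice. Ube2a, an E2 of DNA damage tolerance and histone H2B, had 41.4, 72.7 and 70.6 in BA mice and 108, 110 and 150 in AP mice. All AP mice lay above all BA mice (log2 fold change 1.01, SE 0.29, unadjusted p = 0.00715, adjusted p = 0.408, limma). In the BA vs AV table Ube2a had 103.7 and 78.7 in AV mice and 38.3 to 63.1 in BA mice, also without overlap and not called (adjusted p = 0.091). Ube2n-ps1 had 51.9, 40.9 and 44.4 in BA and 48.0, 93.8 and 87.0 in AP mice, and as a processed copy of Ube2n it may share its reads.

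On the lower side stood Fbxo5, Fbxo10 and Ube2l6. Fbxo5 (Emi1), an inhibitor of the anaphase-promoting complex, had 49.96, 27.6 and 42.5 in BA mice and 15.6, 19.0 and 16.1 in AP mice. The AP values were close together and below all BA values (log2 fold change -1.16, SE 0.27, unadjusted p = 0.0022, adjusted p = 0.347, limma). It was not listed in the BA vs AV table. Fbxo10 had 119, 89.1 and 82.9 in BA and 61.1, 79.2 and 30.1 in AP mice (log2 fold change -0.85, adjusted p = 0.637). Ube2l6 had 51.0, 36.5 and 48.6 in BA mice and 42.9, 18.3 and 21.9 in AP mice, with AP replicate 1 inside the BA range (log2 fold change -0.77, adjusted p = 0.643).

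The genes that changed most in AV mice split the AP mice. Fbxl16 had 67.0, 100.4 and 53.5 in the BA mice and 57.7, 321 and 534 in the AP mice. AP replicate 1 was inside the BA range and the other AP mice were well above it (log2 fold change 1.58, SE 0.72, adjusted p = 0.659). Usp46 had 101, 231 and 182 in BA and 166, 283 and 444 in AP mice, and Fbxw7 had 132.0, 132.2 and 109.9 in BA and 99.8, 237 and 311 in AP mice, with the same mouse low. Fbxo7 had 1284, 1240 and 1084 in BA mice and 1299, 834 and 572 in AP mice, so AP replicate 1 was the highest of all. Usp54 had 4241, 5042 and 3460 in BA mice and 3746, 2885 and 2859 in AP mice, with groups that overlap. Ube2v1, Ube2m and Ube2d1 had log2 fold changes of 0.13, 0.30 and -0.09 in AP mice.

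Set against the mean of the BA mice, the 16 genes called higher in AV mice had a median log2 difference of 0.08 in AP replicate 1, 0.42 in AP replicate 2 and 0.43 in AP replicate 3. For the 13 genes called lower these medians were -0.04, -0.45 and -0.47. The genes were chosen in a comparison with the same BA mice, so these medians are a description and carry no test. The marker Camk2a followed the same division, with 64.9, 98.3 and 69.4 in BA mice and 77.0, 843 and 1401 in AP mice. Map2, the other listed neuronal marker, changed less (log2 fold change 0.60, not called). It had 995, 1176 and 1266 in BA mice and 1126, 1913 and 2408 in AP mice, with AP replicate 1 inside the BA range. Summed oligodendrocyte markers did not follow this division, at 220762 to 282637 in BA and 223452 to 276191 in AP mice. Astrocyte markers (7 of 7 listed) summed to 12085 to 17179 in BA mice and to 9657, 52584 and 29644 in AP mice. Microglial markers (9 of 9) summed to 1566 to 3138 and 4251 to 7675 without overlap. Precursor (4 of 4), endothelial (4 of 4) and inhibitory neuron markers (1 of 6) and Foxj1 overlapped between BA and AP mice. The part of these cell types in the division was not tested.

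**Figure D5:**
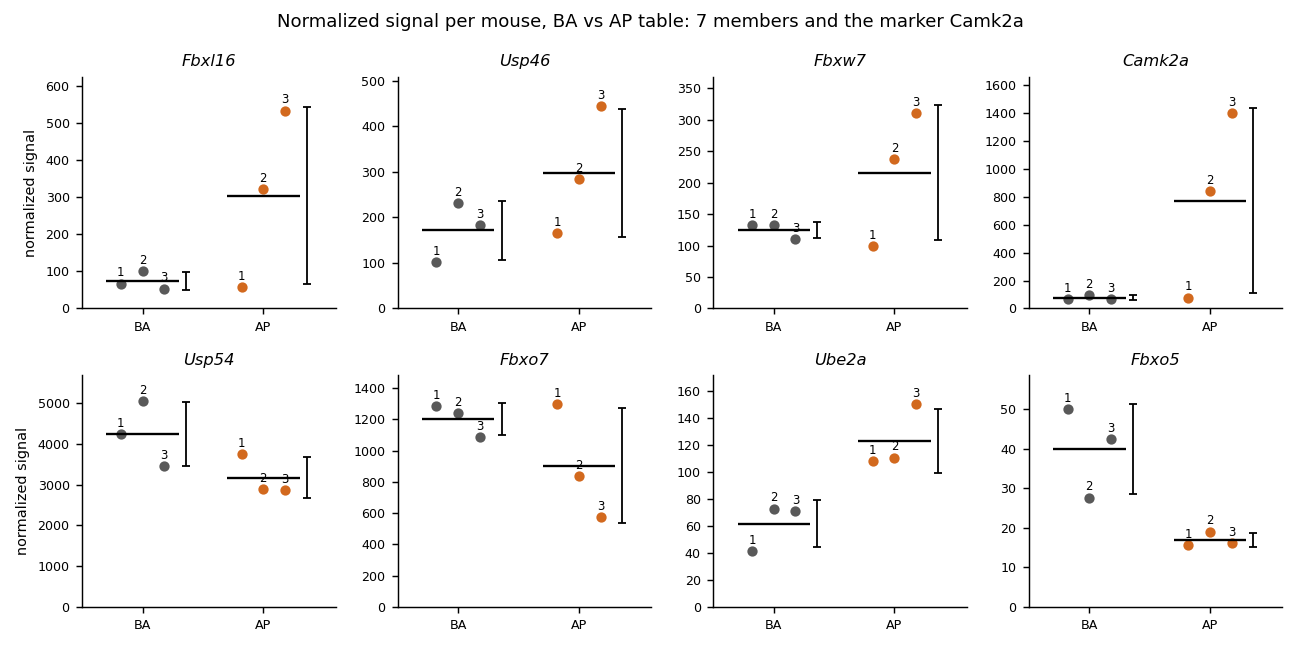
Normalized signal (y axes, linear, from 0) in the BA vs AP table of 7 ubiquitin genes and the neuronal marker Camk2a. Each point is 1 mouse with its replicate number, bars are means and error bars SD (3 mice a group). AP replicate 1 lies near the BA mice for Fbxl16, Fbxw7, Fbxo7 and Camk2a, while all AP mice lie above BA for Ube2a and below for Fbxo5.

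Genes with the smallest p of the other classes in AP mice were also uneven. For the ligases and scaffolds these were Ube3c and Cul4b, with log2 fold changes of -0.35 and 0.37 (adjusted p = 0.718 and 0.700). Fbxw23 had 10.5, 20.4 and 3.24 in BA and 21.3, 28.9 and 15.0 in AP mice, so its lowest BA value is below the level of 3 reads. Uba1y had 24.4, 15.3 and 26.5 in BA mice and 22.5, 15.8 and 2 in AP mice, the last being the value of a gene without reads. Usp13 had a log2 fold change of -1.08 (adjusted p = 0.683) and Uchl5 of 0.54 (adjusted p = 0.727). Among the other selected genes, Ube3a had 1270, 1810 and 1740 in BA and 1510, 1540 and 1552 in AP mice, and Uba1 had 1014, 1221 and 774 in BA and 841, 1096 and 791 in AP mice, both overlapping. Usp9x, Usp7, Cul3 and Uba6 had log2 fold changes of -0.05, -0.02, 0.15 and -0.30. Usp31, listed in the BA vs AP table only, had the second highest signal per kb there, with means of 307 in BA and 214 in AP mice.

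A list of 188 further genes of the ubiquitin system, chosen by function and not by the name rule, was described in the same way. In AV mice 162 were listed and 38 were called (23.5%, against 29.7% of all genes), 17 higher and 21 lower, with a median log2 fold change of 0.01. RING and U-box ligases had 17 of 40 called, 7 higher and 10 lower, and deubiquitinases of other families 9 of 31, 3 higher and 6 lower. HECT and RBR ligases had 4 of 26 called, partners of cullin ligases 4 of 26, ubiquitin receptors 2 of 21, precursors 2 of 9 and E1 and E2 enzymes of other names 0 of 9, where 4 had an unadjusted p under 0.05. The largest increases were those of Trim37 (150, 125 and 229 in BA, 803 and 653 in AV mice, log2 fold change 2.15) and Znrf2 (log2 fold change 1.59, adjusted p = 0.0218). The largest decreases were those of Josd2 (952, 861 and 694 in BA, 169 and 240 in AV mice, log2 fold change -2.04) and Siah2 (log2 fold change -1.77, adjusted p = 0.0057). Trim37 is a RING ligase, and Josd2 is a deubiquitinase related to ataxin-3.

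Among the precursors of that list in AV mice, Rps27a, which encodes a fusion of ubiquitin with a ribosomal protein, rose from 416, 306 and 315 to 696 and 829 (log2 fold change 1.15, SE 0.24, adjusted p = 0.015). The polyubiquitin gene Ubb, which responds to stress, had a log2 fold change of 0.40 and was not called (adjusted p = 0.250). Nedd8 was not called (log2 fold change 0.12), and Sumo2 was called higher (0.97, adjusted p = 0.0419). In AP mice 170 of the 188 genes were listed and 0 were called by limma. An unadjusted p under 0.05 was reached by 5 of these 170, a smaller share than the 7.77% of all genes.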

How the data were processed

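RNA of sorted amygdala cells, labelled as neurons, of 9 mice was studied in the 8 mice with a deposited column. The authors deposited a normalized signal per gene and mouse, which per the paper's methods was scaled by TMM, filtered for low counts and corrected for batch with ARSyN. The submitters' processing notes name bcl2fastq 2.20, Salmon 1.2 and GRCm38.p6. ARSyN removes variation not assigned to a group, so the spread between mice, and with it each p value, can come out too small. Most low values lie on read steps in the BA vs AP table but not in the BA vs AV table. Whether both had this correction cannot be told, and the counts of calls of both tables may differ with it. Each mouse gave 1 library. The tables were normalized separately and tested apart, and their depth is unknown apart from read steps in the BA vs AP table. No deposited column was left unused.

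Symbols, coordinates and exon lengths came from GENCODE M21, and promoters from RefSeq. Each table was fitted over all rows with limma 3.58.1 (R 4.3.3) on log2(signal + 1), without covariates, with a Benjamini-Hochberg adjusted p under 0.05 as the call. The test of the study, NOISeqBIO, was not used here. Signal per kb is the mean divided by merged exon length. The members and all lists were chosen with earlier results of these data known.

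Genes described were, per comparison and class, the 2 largest called increases and decreases with a group mean of at least 20, otherwise the smallest p of the class, and a fixed set of well-known enzymes. For AP mice the 3 smallest p per direction were added, and for the list of 188 genes the 2 largest called changes per direction. Other genes are given for counts or beside a relative and were chosen after their values were seen. Alternatives were pseudocounts of 0.5 and 5, a minimum mean of 10, centring on the median gene, a variance prior by mean expression, a replicate block and leaving out each mouse. A few genes that enter the counts are not reported here by name. Proteins and amino acid sequences were not analysed here.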

Additional observations from a re-analysis of the deposited data

How the results depend on the processing

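The count of 29 ubiquitin genes called in AV mice was 28 and 32 with pseudocounts of 0.5 and 5, 29 with a minimum mean of 10 and with centring, and 32 with a variance prior by mean expression. It ran from 13 to 33 when 1 mouse was left out, the lowest without BA replicate 2 and the highest without AV replicate 1. Without an AV mouse, the remaining one is assumed to vary like the BA mice. In AP mice the count stayed at 0 under every alternative. Over the 29 called genes, 58 of 145 calls were lost when 1 mouse was left out. For the genes taken by the naming rule, 33 calls were lost in this way and 21 under other settings, and the cause was not tested.

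Replicate numbers are shared between groups. The residuals of mice with the same number correlated at -0.06 and -0.04 for BA vs AV, where the residuals of the 2 AV mice mirror each other. For BA vs AP the same-number correlations were 0.02, 0.12 and 0.08, above those of all pairs with different numbers (-0.12 to 0.014). In values that may have been corrected for batch, such correlations cannot show whether the numbers pair the mice. The main fits did not pair them. With the replicate block, which leaves BA replicate 2 without a partner, 5 ubiquitin genes were called in AV mice, among them Fbxl16, Usp46, Ube2m and Fbxo7. With the block an unadjusted p under 0.05 was reached in AV mice by 29 ubiquitin genes (21.5%), against 31.9% of all genes. In AP mice 13 (8.9%) had an unadjusted p under 0.05 with the block, against 8.97% of all genes. Usp9x then changed sign in AV mice, to 0.0084.

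Centring turned Uba6 (-0.020) and Ube4b (-0.014) in AV mice and Fbxo2 (-0.014) in AP mice. Leaving out 1 mouse also turned genes with small changes, none of them called in that comparison. In AV mice log2 fold changes ran from -0.437 to 0.55 for Uba6, -0.28 to 0.064 for Cul1, -0.38 to 0.30 for Uchl3, -0.37 to 0.0084 for Usp9x and -0.000468 to 0.10 for Ube4b. In AP mice they ran from -0.34 to 0.25 for Fbxo2, -0.22 to 0.074 for Uchl3, -0.087 to 0.089 for Usp7, -0.094 to 0.24 for Cul5, -0.18 to 0.33 for Usp14, -0.28 to 0.12 for Usp9x, -0.054 to 0.24 for Cul1, -0.31 to 0.023 for Uba1, -0.21 to 0.045 for Ube3a and -0.10 to 0.17 for Ube3b. With 2 AV mice and 3 mice in other groups, changes of this size are within the spread between mice.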
